A study of Homo sapiens with 4 samples.

Results

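The MYC, MAX and MXD network is a family of transcription factors that share a basic helix-loop-helix leucine zipper and compete for the same short DNA element. Nucleosomes around the start sites of 10 of its genes were described here: MYC, MYCL, MAX, MXD1, MXD3, MXD4, MXI1, MNT, MLX and MGA. The genes were taken by name and not by their values, though with earlier results of these data known, from 20163 protein-coding genes of the annotation. The values came from BE(2)C, an established human neuroblastoma cell line with amplified MYCN, written BE2C in the labels and given there as wild type. The cells had been given control siRNA or siRNA against MYCN with Lipofectamine 2000, at 80 nM by the labels, and both groups share the line and its MYCN amplification. Each group had 2 libraries of DNA cut with micrococcal nuclease (MNase-seq), numbered 1 and 2 in both groups, described as biological replicates in the study's methods. The labels name no cultures. P-values rest on the spread between these libraries. For single genes that spread was estimated with the help of all promoters and not from the gene alone.

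MYC proteins bind the E-box CACGTG as dimers with MAX and recruit coactivators, and MYCL is a MYC relative first found amplified in small cell lung cancer. MXD1, MXD3, MXD4, MXI1, MNT and MGA also pair with MAX, occupy the same element and mostly repress, the first 5 through SIN3 and histone deacetylases and MGA as part of a Polycomb complex. MLX is a second hub, which pairs with MNT, with some MXD proteins and with the glucose-responsive MLXIP and MLXIPL. In neuroblastoma with MYCN amplification, the MYC protein in excess is MYCN, and MYC itself is usually low.

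The start sites, on GRCh37 (hg19), lay at 40367589 on chromosome 1 for MYCL, 65569235 on chromosome 14 for MAX, 40719118 on chromosome 17 for MLX and 70142241 on chromosome 2 for MXD1. Those of MXD3 and MXD4 lay at 176738899 on chromosome 5 and 2263836 on chromosome 4. Those of MXI1, MNT and MGA lay at 111967363 on chromosome 10, 2304354 on chromosome 17 and 41952603 on chromosome 15. Each is the transcription start site (TSS) of the canonical transcript. MXD1 and MGA also have annotated starts 17421 and 39271 bp farther upstream. No other protein-coding or lncRNA gene started within 2000 bp of these sites, apart from a lncRNA on the opposite strand 986 bp downstream of the MXI1 start.

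Because the network acts on CACGTG, the genes' own copies of it were located first. The motif is its own reverse complement, so 1 search covered both strands. Shown in capitals, with 12 bases on each side, are 6 sites that lay under no called nucleosome in any of the 4 libraries and 2 sites that lay under a nucleosome in all 4. A site counted as under a nucleosome where a dyad, the centre of a called 147-bp nucleosome, lay within 73 bp. Numbers after the names are distances in bp from the TSS, and all sequences are from the forward strand of GRCh37. The first 6 lines are the sites never under a nucleosome.
MAX upstream 346: gggaagacaggaCACGTGgagggagctgga
MXD1 upstream 822: ccccgcagcagcCACGTGgcgcctgcccta
MXD4 upstream 236: gcttagcaacagCACGTGgtggcccggccc
MNT upstream 190: ccggcgcgcgcaCACGTGgcccgggcaggg
MNT downstream 1328: gtgtccccggtgCACGTGgtcgggggcgga
MLX upstream 48: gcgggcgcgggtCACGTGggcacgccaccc
MXD1 upstream 1828: cctcagtttcttCACGTGcaaaatgtaatt
MLX upstream 1340: gtggaacagagcCACGTGgtgctcagcacc
The MAX stretch is chr14:65569567-65569596. Those of MXD1 are chr2:70141405-70141434 and chr2:70140398-70140427, and that of MXD4 is chr4:2264057-2264086. Those of MNT are chr17:2304530-2304559 and, in an intron, chr17:2303011-2303040. Those of MLX are chr17:40719056-40719085 and chr17:40717764-40717793, the latter in a coding exon of the neighbouring gene COASY. The other sites named here lie outside canonical transcripts.

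Of the 10 genes, 9 held at least 1 CACGTG within 2000 bp of the TSS, and MYC held none. The sites described here number 17. Over all protein-coding promoters the share with a site in that range was 43.5%. In the window between 200 bp before and 50 bp past the TSS, the place of the usual nucleosome-free region, sites of MNT and MLX are described, and 7.84% of all promoters held a site there. Of the 17 sites, MAX, MNT and MGA had 3 each, MXD1 and MLX with 2 each, and MYCL, MXD3, MXD4 and MXI1 with 1 each. A match to 6 letters is a description and not a measured binding site.

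**Figure D1:**
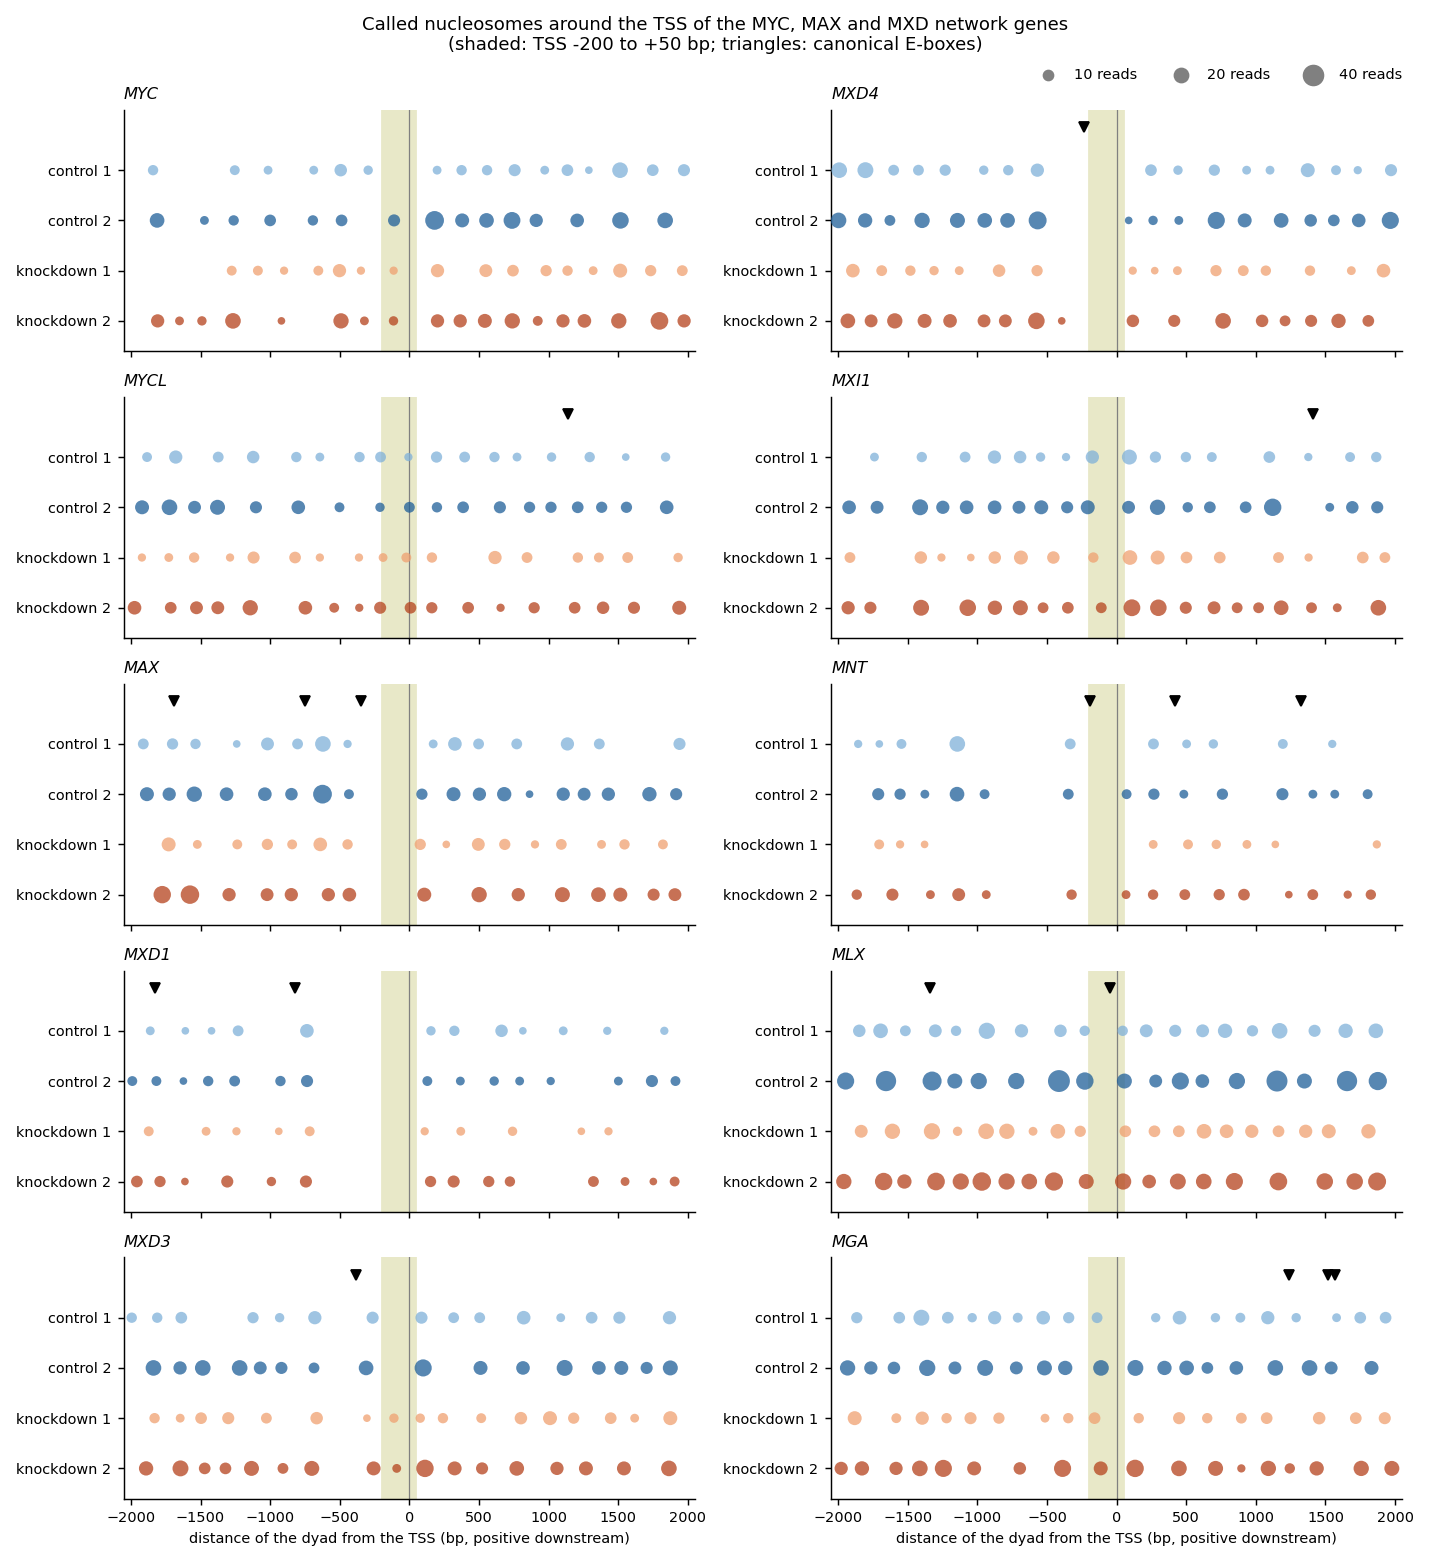
Called nucleosomes within 2000 bp of the TSS of each gene, with the distance of the dyad from the TSS (bp) on the x axis, 1 row per library and the dot area proportional to the reads. The shaded band is the window and triangles mark E-boxes. The bands of MAX, MXD1, MXD4 and MNT hold no dot in any library, and that of MXD3 holds one in the knockdown libraries alone.

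The nucleosome lists held 10527010 nucleosomes in control replicate 1, 12120711 in control replicate 2, 10677252 in MYCN knockdown replicate 1 and 12178724 in MYCN knockdown replicate 2. Median reads per nucleosome were 12, 18, 12 and 18 in the same order, with a minimum of 6. The 10 genes held 156, 169, 153 and 170 nucleosomes within 2000 bp of their TSS, with medians of 12, 18, 11 and 18 reads. A nucleosome absent from a list may thus have had a few reads under the minimum, more often in the shallower replicate 1 libraries. The promoter of MYCN, the targeted gene, held 18725, 23542, 18820 and 23646 reads against medians of 163, 263, 159 and 260 over all promoters. That value checks the line and not the knockdown, since these libraries hold no RNA.

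The windows of MAX, MLX, MXD1, MXD4 and MNT were empty in all 4 libraries, that is, no nucleosome lay at least 80% inside them. These were 5 of 10 genes, against 32.3% of 20079 promoters with reads nearby in every library. No gene of the network was held in all 4, against 19.9% of promoters, and the other 5 were mixed, against 47.8%. CpG counts in the 5 constantly empty windows ran from 17 (MXD1) to 34 (MXD4) and overlapped those in the other 5, from 14 (MXI1) to 37 (MYCL).

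MXD1, a repressor that rises as cells differentiate, had the widest gap of the 10 over the TSS in 3 of 4 libraries, and MNT had it in MYCN knockdown replicate 1. The dyads on either side lay 891 and 864 bp apart in the controls and 826 and 895 bp apart in the knockdown libraries. The groups overlapped, and the gap was wider than at 96.0% to 99.5% of promoters in each library. MXD1 listed 12, 15, 10 and 14 nucleosomes within 2000 bp, against medians of 16, 17, 16 and 17 over all promoters. Its surroundings were also low in reads, at 0.63 to 0.73 of the library median. Whether nucleosomes under the minimum of 6 reads widened the gap was not tested. The flanking nucleosomes were matched across the 4 libraries, with the upstream dyad 716 to 743 bp before the TSS (19, 15, 10 and 15 reads) and the downstream dyad 110 to 155 bp after it (9, 10, 7 and 13 reads). The MXD1 E-box at 822 bp upstream lay just beyond the upstream edge of this gap, 79 to 106 bp from the edge nucleosome and under none.

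MXD4, a repressor of the same subfamily, had gaps of 816 and 654 bp in the controls and 687 and 511 bp in the knockdown libraries. The groups overlapped. The upstream edge was a well-placed nucleosome found 567 to 576 bp before the TSS in all 4 libraries, with 18, 33, 13 and 28 reads and a mean fuzziness of 26.2 bp, where fuzziness is the standard deviation (SD) of the read midpoints around the dyad. In MYCN knockdown replicate 2 a further nucleosome of 6 reads, the minimum, lay 394 bp upstream and set the smaller gap there. The CACGTG of MXD4, 236 bp upstream, lay inside this gap, 323 to 336 bp from the nearest dyad in 3 libraries and 159 bp in MYCN knockdown replicate 2. The 200 bases upstream of its TSS, chr4:2263837-2264036 on the reverse strand, had no nucleosome centred in them in any library and are printed to show this stretch, which is 73.5% G or C with 23 CpG and no CACGTG.
MXD4 upstream: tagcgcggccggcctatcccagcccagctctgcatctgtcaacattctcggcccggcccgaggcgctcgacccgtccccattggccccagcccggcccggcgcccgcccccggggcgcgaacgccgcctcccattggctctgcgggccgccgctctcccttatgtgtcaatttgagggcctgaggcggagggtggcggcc

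MAX, the obligate partner of the MYC and MXD proteins, had gaps of 615 and 524 bp in the controls and 522 and 538 bp in the knockdown libraries. The upstream edge lay 431 to 444 bp before the TSS in all 4 libraries. The downstream edge moved more, from 78 to 171 bp. The MAX E-box at 346 bp upstream lay in this gap and under no nucleosome in any library, 85 to 98 bp from the nearest dyad. MAX, MXD1 and MXD4 were the genes of the 10 whose gap was at least 500 bp in every library, and 4.02% of promoters had such a gap.

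MNT, a broadly expressed repressor that pairs with MAX or MLX, had gaps of 598 and 419 bp in the controls and 1642 and 391 bp in the knockdown libraries. The value of 1642 bp came from MYCN knockdown replicate 1, whose nucleosome nearest upstream lay 1379 bp before the TSS. The other 3 libraries had one between 323 and 347 bp upstream with 11 or 12 reads. MNT had few reads throughout, and MYCN knockdown replicate 1 listed 9 nucleosomes within 2000 bp, against 10, 14 and 15 in the others. A nucleosome 262 to 268 bp downstream was among the best matched of the network, with 12, 13, 8 and 11 reads.

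MLX kept an ordinary gap of 273 and 284 bp in the controls and 324 and 265 bp in the knockdown libraries, near the medians of all promoters, 284 to 324 bp. Its first downstream nucleosome lay 44 to 63 bp after the TSS in all 4 libraries and the first upstream one 218 to 261 bp before it. The E-box at 48 bp upstream lay between them, 92 to 111 bp from the nearest dyad. With the window called held where 50% of a nucleosome lay inside, the MLX window was held in control replicate 1 and MYCN knockdown replicate 2, so its constant emptiness rests on the 80% definition.

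MXD3, a repressor expressed in dividing cells, was the gene of the 10 whose window changed state with the group. The window was empty in both controls and held a nucleosome in both knockdown libraries, 111 bp upstream with 9 reads in replicate 1 and 91 bp upstream with 8 reads in replicate 2. The gap over the TSS was 351 and 410 bp in the controls and 189 and 203 bp in the knockdown libraries, where this nucleosome set it. The MXI1 gap was also smaller in both knockdown libraries, at 263 and 220 bp against 266 and 293 bp in the controls. The share of all promoters whose gaps split in this way was not computed. Among the 8457 promoters empty in both controls, 5.25% were held in both knockdown libraries, and in the network it was 1 of 7 (MXD3). In the opposite direction, 5.64% of the 8559 promoters empty in both knockdown libraries were held in both controls, and 0 of the 5 such network genes were. The MXD3 call rests on nucleosomes of 9 and 8 reads, near the minimum of 6, and it was lost in replicate 2 when at least 10 reads were required there. The nucleosomes on either side were matched in all 4 libraries, 257 to 311 bp before and 78 to 112 bp after the TSS, so the knockdown libraries listed an additional nucleosome between them.

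Among the activators, the window of MYC, on chromosome 8, held no nucleosome in control replicate 1 and one in the other 3 libraries, 110 to 114 bp upstream with 15, 7 and 9 reads. Its first downstream nucleosome lay 181 to 202 bp after the TSS, with 8, 36, 18 and 18 reads. MYCL carried a nucleosome directly on its TSS in every library, with dyads 7 bp upstream, at 0, 22 bp upstream and 8 bp downstream, in the order control replicates 1 and 2 and knockdown replicates 1 and 2. It held 7, 12, 10 and 14 reads. The MYCL window counted as empty in MYCN knockdown replicate 2 because 116 of the 147 bp lay inside, just under 80%.

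MXI1 and MGA varied between libraries in the same way. MXI1, a further MAX partner, had a nucleosome reaching into the window in all 4 libraries, with dyads 174 and 207 bp upstream in the controls and 167 and 110 bp upstream in the knockdown libraries, and 18, 20, 11 and 12 reads. It lay at least 80% inside in MYCN knockdown replicate 2 alone. MGA, which also carries a T-box domain, had one 140 and 112 bp upstream in the controls and 158 and 114 bp upstream in the knockdown libraries, with 12, 25, 14 and 20 reads. It missed the definition in MYCN knockdown replicate 1, with 116 bp inside.

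Over the network, 8 and 7 windows were empty in the controls and 7 and 6 in the knockdown libraries. The means were 7.5 ± 0.71 and 6.5 ± 0.71 (SD, n = 2), a difference of -1, and an exact two-sided permutation test over the libraries gave p = 0.667. Two-sided, 2 libraries against 2 allow no p below 0.333, and this test could therefore not reach 0.05. The share of all promoters that were empty was 58.4% and 52.6% in the controls and 60.3% and 52.1% in the knockdown libraries. It was lower in the deeper replicate 2 of each group.

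**Figure D2:**
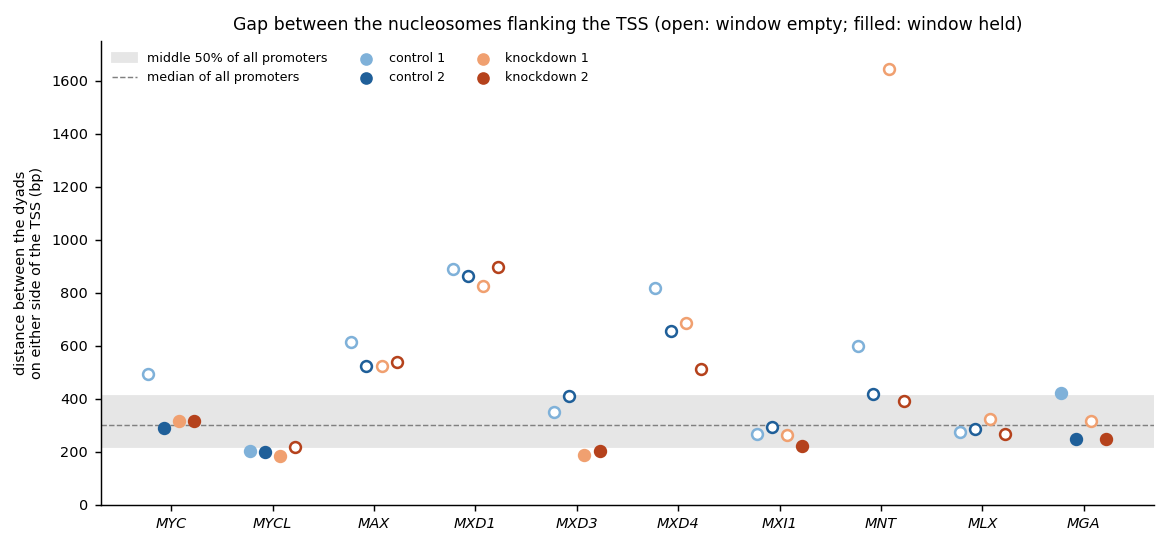
Distance in bp between the dyads on either side of the TSS for each gene and library, with open points where the window was empty and filled points where it was held. The band spans the middle 50% of all promoters and the dashed line is their median, both averaged over the libraries. MXD1 sits between 826 and 895 bp in all 4 libraries, and MXD3 is the gene with open points in both controls and filled points in both knockdown libraries.

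Promoter occupancy was the sum of the reads in called nucleosomes between 2000 bp before and 1000 bp past the TSS. MYC held 115 and 220 reads in the controls and 131 and 197 in the knockdown libraries, or 34.7, 40.9, 40.8 and 37.4 RPM (reads of the promoter in every 1000000 reads summed over all promoters, after TMM scaling). The groups overlapped for MYC, and the log2 change was 0.03 ± 0.17 (SE). MYCL held 149, 203, 135 and 203 reads, or 45.0, 37.7, 42.1 and 38.6 RPM. The MYCL values overlapped as well, with a log2 change of -0.03 ± 0.16 (SE).

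Of the 2 hubs, MAX held 154, 240, 147 and 218 reads, or 46.5, 44.6, 45.8 and 41.4 RPM. The values overlapped and the log2 change was -0.07 ± 0.15 (SE). MLX held 244, 382, 270 and 406 reads, or 73.7 and 71.0 RPM in the controls and 84.1 and 77.1 in the knockdown libraries. MLX was thus higher in both knockdown libraries than in either control, with a log2 change of 0.15 ± 0.14 (SE), a difference about the size of its error.

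Among the repressors, MXD4 held 170, 255, 134 and 226 reads, or 51.4 and 47.4 RPM in the controls and 41.8 and 42.9 in the knockdown libraries. MXD4 was lower in both knockdown libraries, with a log2 change of -0.21 ± 0.15 (SE). MGA held 195, 316, 169 and 284 reads, or 58.9 and 58.7 RPM in the controls and 52.7 and 54.0 in the knockdown libraries. It was also lower in both, with a log2 change of -0.14 ± 0.14 (SE), although at the annotated start farthest upstream the change was 0.21. MXI1 held 156, 270, 174 and 270 reads, or 47.1 and 50.2 RPM in the controls and 54.2 and 51.3 in the knockdown libraries. It was higher in both, with a log2 change of 0.11 ± 0.14 (SE).

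MXD1, MXD3 and MNT overlapped between the groups. MXD1 held 93, 110, 65 and 124 reads, or 28.1, 20.4, 20.3 and 23.6 RPM, with a log2 change of -0.12 ± 0.30 (SE). MNT held 89, 124, 58 and 128 reads, or 26.9, 23.0, 18.1 and 24.3 RPM, with a log2 change of -0.21 ± 0.29 (SE). In both, the number 1 libraries fell and the number 2 libraries rose, and the errors were about 2-fold those of the other genes. MXD3 held 149, 228, 137 and 249 reads, or 45.0, 42.4, 42.7 and 47.3 RPM, with a log2 change of 0.06 ± 0.15 (SE).

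All 10 promoters had an adjusted p of 0.999 in edgeR's quasi-likelihood test, where 0 of 20106 promoters (0%) passed and 634 had an unadjusted p under 0.05. DESeq2 also called 0, with 210 at an unadjusted p under 0.05. In edgeR 0 of the 10 genes were under 0.05 unadjusted, 4 had a positive log2 change and 6 a negative one, and their median was -0.05. The groups did not overlap for 4 of the 10 genes. MXI1 and MLX were higher in the knockdown libraries, as were 15% of all promoters, and MXD4 and MGA were lower, as were 15.3%.

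**Figure D3:**
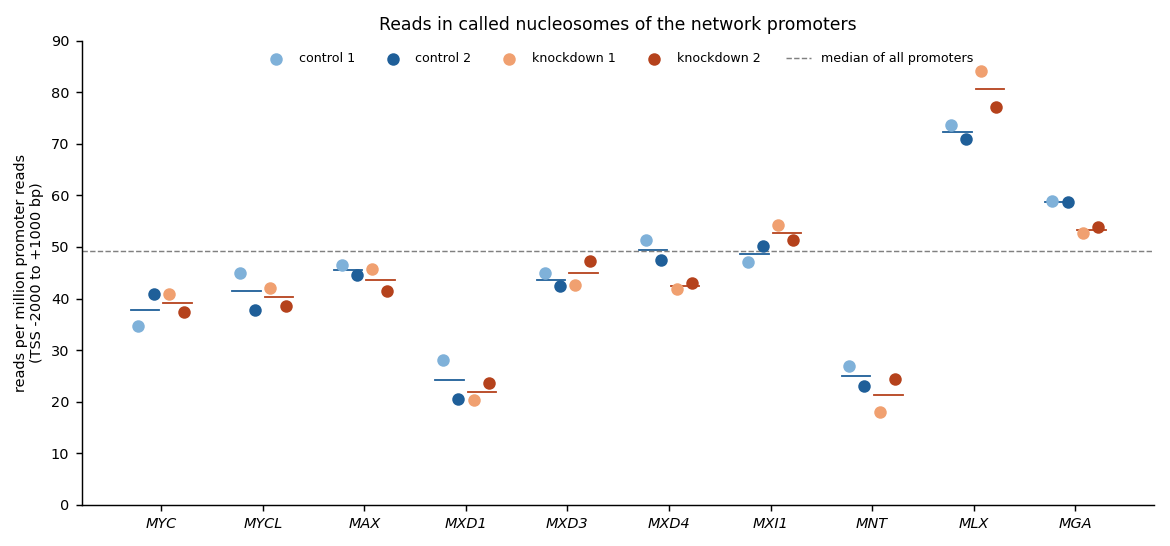
Promoter reads in RPM (y axis, linear) in called nucleosomes of each promoter, with 1 point per library and short lines for the group means of 2 libraries. The dashed line is the median of all promoters. MLX lies at 71.0 to 84.1 and MXD1 and MNT at 18.1 to 28.1 in all 4 libraries.

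The level itself differed more between the genes than between the groups. MXD1 ranked at percentiles 14.3 and 1.9 of all promoters in the controls and 4.7 and 4.0 in the knockdown libraries, and MNT at 12.7, 3.9, 3.0 and 4.8. MLX ranked at 89.1, 90.4, 97.2 and 96.9. Lower reads at a promoter and fewer copies of its region cannot be told apart from such sums alone, so the level of the surroundings was set beside them, as the median of 10000-bp bins within 500000 bp over the median of the library. It was 0.63 to 0.73 around MXD1, 0.69 to 0.81 around MNT and 1.47 to 1.61 around MLX, against medians of 1.18 to 1.20 for all promoters. After division by this level, MXD1 was at percentiles 54.5, 2.7, 10.3 and 8.2, MNT at 21.3, 3.0, 3.0 and 5.5, and MLX at 69.3, 60.8, 90.1 and 83.4. MYCL, with surroundings at 0.67 to 0.75, moved from percentiles of 27.8 to 41.8 up to 84.2 to 96.9. The order of the genes thus changed with the division. Whether the order by promoter reads follows the level of the surroundings was not tested. After the division, MNT stayed at or below percentile 21.3 in all 4 libraries and MXD1 at or below 10.3 in 3 of them. MAX, whose surroundings were at 1.36 to 1.42, moved down from percentiles of 33.5 to 44.6 to 18.1, 7.1, 13.3 and 3.7.

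Fuzziness, averaged over the nucleosomes within 2000 bp of each TSS and weighted by reads, was compared next. It was 33.3 and 33.1 bp in the controls and 35.6 and 34.5 bp in the knockdown libraries at MYCL. It was 34.1 and 35.7 bp in the controls and 37.1 and 36.8 bp in the knockdown libraries at MAX. Both genes were thus higher in both knockdown libraries, by 1.87 bp and 2.07 bp, with an SE of 1.95 bp that limma gave to every promoter.

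MXD4 was lower in the knockdown libraries, at 35.1 and 35.3 bp against 35.7 and 35.6 bp, a difference of -0.47 bp. The other 7 genes overlapped between the groups, with differences from -1.44 bp at MXD1 to 0.83 bp at MXD3. The difference at MXD1 was 3.36 bp with at least 10 reads per nucleosome and 0.38 bp without MYCN knockdown replicate 2, and that at MXD3 was -1.18 bp without control replicate 1 and -0.51 bp without MYCN knockdown replicate 2. That at MXD4 was 0.42 bp with at least 10 reads. The differences at MYCL (1.33 to 2.74 bp) and MAX (1.26 to 2.88 bp) were positive in all 8 alternatives run. Among these, the replicate number as a block leaves such a difference unchanged by design. Leaving out 1 library cannot reverse it either, because the groups did not overlap at MYCL and MAX. None of the 10 genes was among the promoters called by limma at an adjusted p under 0.05, 1 of 20026 (0.00499%), and 0 of the 10 genes had an unadjusted p under 0.05. Groups that did not overlap with the knockdown higher were found at 9.7% of promoters (2 of the 10 genes), and with the knockdown lower at 10.8% (1 of the 10). The mean over the genes was 33.3 and 35.2 bp in the controls and 34.0 and 34.7 bp in the knockdown libraries, a difference of 0.15 bp with p = 1.0 in the exact two-sided permutation test. The replicate 2 libraries were higher in each group.

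**Figure D4:**
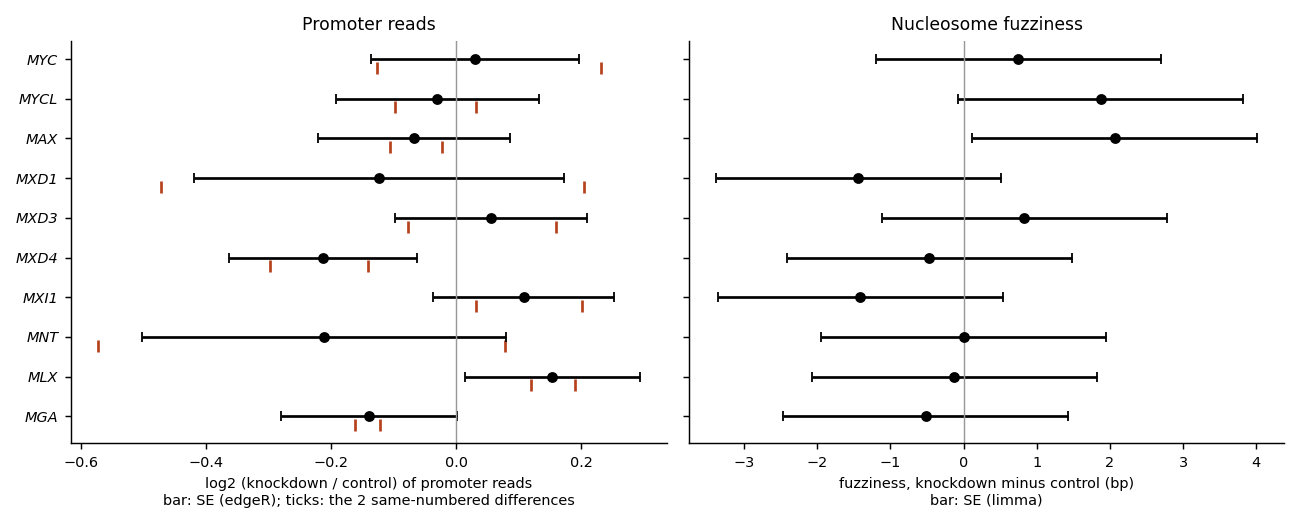
Left, log2 change of promoter reads, knockdown over control, with its SE from edgeR and ticks for the differences between the number 1 and the number 2 libraries. Right, the fuzziness difference in bp with its SE from limma. The log2 changes run from -0.21 to 0.15 and the fuzziness differences from -1.44 to 2.07 bp.

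Single nucleosomes were then followed between libraries as mutually closest dyads at most 116 bp apart. Between control and knockdown of the same number, the median distance over the network was 18.0 bp for number 1 and 23.0 bp for number 2. Between the replicates of a group it was 18.0 bp in the controls and 27.5 bp in the knockdown libraries. By these medians the dyads lay no farther apart between groups than between replicates. Unpaired nucleosomes made up 16.0% and 11.8% between the groups and 7.69% and 12.4% between replicates. Over all promoters the same shares were 15.2% and 11.5%, and 10.1% and 9.98%. The share was counted in the first library of each pair. Both replicate pairs ran from the shallower number 1 library to the deeper number 2 library, while same-numbered pairs had like depth. From control replicate 1 to MYCN knockdown replicate 2 the share was 10.9%, and 9.98% over all promoters. From control replicate 2 to MYCN knockdown replicate 1 it was 20.7%, and 18.9% over all promoters. At most 2 of the nucleosomes were at the same base pair in any of the 6 pairs of libraries.

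In total 85 nucleosomes of the 10 genes were matched in all 4 libraries, and 19 of these (22.4%) had their 4 dyads within 20 bp, as did 21.4% of those of all promoters. MYC and MXI1 had 4 each, MAX, MXD3 and MLX 3 each, MXD4 and MNT 1 each, and MYCL, MXD1 and MGA none. The tightest lay 874 to 877 bp upstream of MXI1, with 18, 19, 16 and 21 reads. At MXI1 the nucleosomes centred 693 bp upstream and 502 bp downstream were matched within 14 bp each. At MYC the nucleosomes 487 to 502 bp upstream and 1504 to 1516 bp downstream were matched within 15 and 12 bp, the latter with 25, 28, 20 and 24 reads. At MAX the nucleosome 495 to 503 bp downstream was matched within 8 bp, and at MXD3 the nucleosome 1638 to 1647 bp upstream within 9 bp.

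The layouts of the genes were compared as profiles. Reads in 40 steps of 100 bp, averaged over the libraries, gave a Pearson r between genes of at most 0.32, for MAX and MXI1, followed by 0.28 for MNT and MLX. These are descriptions over neighbouring steps of the same libraries. The same gene compared between replicates of a group gave r from -0.27 at MGA to 0.68 at MXD4, both in the controls. The value at MGA was the only negative one. These values come from single libraries and those between genes from averages, so they are not like measures. With such a spread between replicates, a low r between genes says little about their likeness.

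E-boxes were set against the nucleosomes last. Of the 17 sites, 8 lay under a nucleosome in each control and 6 in each knockdown library. With at least 10 reads per nucleosome the counts were 3 and 7 in the controls and 5 and 6 in the knockdown libraries, so the groups overlapped. With a limit of 50 bp from the dyad they were 6 and 5 against 4 and 5. Over the 12449 CACGTG sites within 2000 bp of a protein-coding TSS the shares were 57.7%, 61.0%, 57.4% and 61.0%, and for the 17 sites they were 47.1%, 47.1%, 35.3% and 35.3%. Sites of 1 gene share its nucleosomes and are not independent. The window sites of MNT and MLX lay under none, and of the 1777 window sites of all genes 31.5%, 36.4%, 29.7% and 37.4% lay under one.

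The sites 1828 bp upstream of MXD1 and 1340 bp upstream of MLX were under a nucleosome in all 4 libraries, the latter with 17, 37, 27 and 32 reads. The MGA site 1568 bp downstream lay 12 and 28 bp from a dyad in the controls and 114 and 132 bp from one in the knockdown libraries. Its nucleosome in control replicate 1 had 8 reads, and with at least 10 reads the site was covered in control replicate 2 alone. The share of all sites that split by group in this way was not computed. The MGA sites 1240 and 1516 bp downstream were covered in both groups in at least 1 library. The MXI1 site lay under a nucleosome in 3 of 4 libraries and the MYCL site likewise, each with a control as the exception. The site of MXD3, 380 bp upstream, was covered in control replicate 2 alone.

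**Figure D5:**
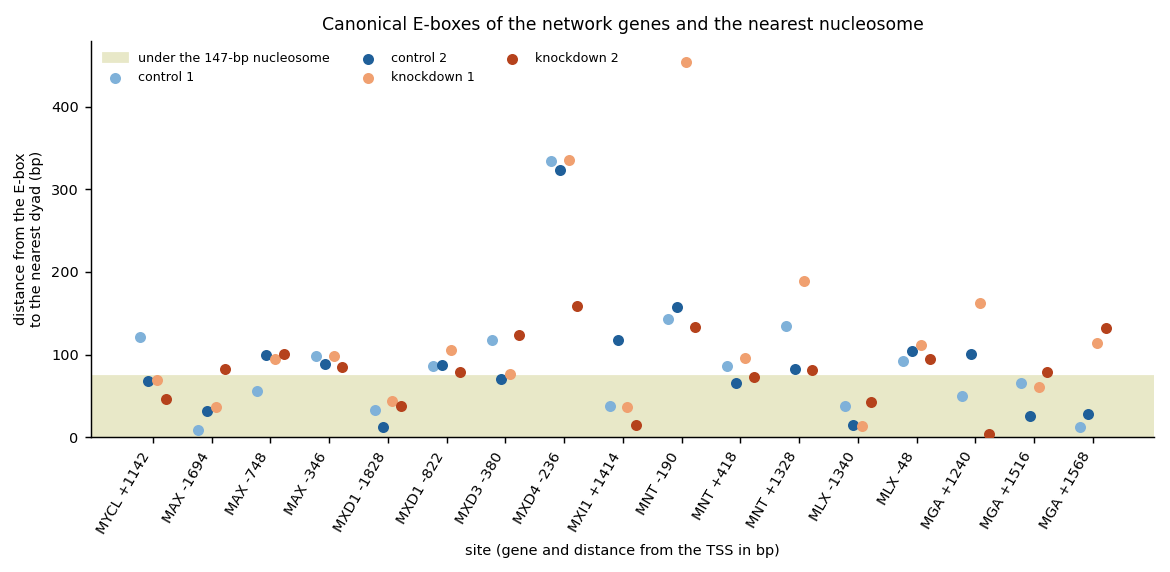
Distance in bp from each of the 17 E-boxes to the nearest dyad in each library, with sites named by gene and distance from the TSS. The shaded band marks sites under a 147-bp nucleosome. All 4 points of the MXD1 site at -1828 and the MLX site at -1340 lie inside the band, and 6 sites have no point inside it.

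The promoters of genes that work with the network were tested in the same edgeR fit, and 0 of 41 passed. The unadjusted p in edgeR was under 0.05 for 1 of the 41, MLXIPL, and for 634 of all 20106 promoters. MLXIPL, the partner of MLX known as ChREBP, is a relative that is not in the set, as are MYCN and MLXIP. It had 278, 392, 203 and 337 reads and a log2 change of -0.29 ± 0.14 (SE), adjusted p = 0.999 in edgeR. MYCN had a log2 change of 0.05 and MLXIP of -0.00062. Of 14 coactivators 7 were positive and 7 negative with a median of -0.0001. Of 9 corepressors 3 were positive and 6 negative with a median of -0.07. Of 8 regulators of MYC protein stability, 4 were positive and 4 negative with a median of 0.03. Of 7 partners of MGA in its Polycomb complex, 3 were positive and 4 negative with a median of -0.04.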

How the data were processed

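BE(2)C nucleosomes were mapped by MNase-seq in 2 control and 2 MYCN knockdown libraries, grouped by their titles. The authors trimmed, mapped to hg19, kept pairs with a mapping quality above 10, removed duplicates and called nucleosomes with Genetrack, leaving out those under 6 reads. The deposited lists are 1 per library, while the methods pool replicates for later steps. The submitters' processing notes name CASAVA 1.9, Trim Galore 0.4.4 and Bowtie2 2.2.4. The deposited read counts are whole numbers per called nucleosome, taken as unscaled because their totals differ. The deposited fuzziness score is the SD of midpoints in bp. A sum covers called nucleosomes alone, so depth and the minimum of 6 bear on it. The methods give a lower siRNA concentration than the labels.

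The genes, lists and comparisons were chosen with earlier results of these data known. All 10 genes are named, and other genes only where a list's count was 5 or fewer. Canonical TSS came from GENCODE v44lift37. Promoter counts with a mean of at least 10 were tested with edgeR 4.0.16 (TMM, quasi-likelihood, group only) and fuzziness with limma 3.58.1 at promoters with at least 5 nucleosomes per library, in R 4.3.3, with Benjamini-Hochberg adjustment over all promoters. Both were tested on simulated data. DESeq2 1.42.0, other scaling, windows, filters, a GC correction, the replicate number as a block and leaving out each library were alternatives. Python 3.11.15 and SciPy 1.17.1 gave the exact permutation tests. One motif site is not reported here and is left out of the counts of the genes' sites.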

Additional observations from a re-analysis of the deposited data

How the results depend on the processing

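With about 12 to 18 reads in a typical nucleosome and 2 libraries per group, single calls near 6 reads are the least certain values. The number of promoters called by edgeR was 0 in every alternative apart from leaving out 1 library, which gave 0 to 1 (1 without MYCN knockdown replicate 2). None of the 10 genes was called in any. Their log2 changes kept their direction for MXD4, MXI1, MNT and MLX in every alternative run, though MNT was -0.03 without MYCN knockdown replicate 1 and was -0.46 without MYCN knockdown replicate 2. With 1 library left out, MXD4 ran from -0.28 to -0.16, MXI1 from 0.07 to 0.16 and MLX from 0.095 to 0.22. The groups did not overlap at MXD4, MXI1 and MLX, so leaving out 1 library could hardly reverse them. Their kept direction in those fits restates the lack of overlap. Those of the others ran from -0.07 to 0.16 for MYC, -0.17 to 0.089 for MYCL, -0.13 to 0.0098 for MAX, -0.35 to 0.11 for MXD1 and -0.03 to 0.12 for MXD3. MYC reversed without control replicate 1 and without MYCN knockdown replicate 1 (-0.03). MYCL reversed in the window of 200 bp upstream to 50 bp downstream (0.89), with a GC correction (0.0023), with that and the replicate block (0.0048), without control replicate 1 and without MYCN knockdown replicate 2 (0.04). MAX and MXD3 reversed without MYCN knockdown replicate 2, MXD1 at the most upstream TSS (0.17) and without control replicate 1, and MGA at the most upstream TSS (0.21). In the short window 7 of the genes were too low to be tested. The cause of these reversals was not tested.

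The labels give same-numbered libraries a shared number alone, and these libraries also had like depth. Their deviations from the group means correlated at r = 0.29 over 20106 promoters. With the replicate number as a block, edgeR called 0 promoters (1175 at an unadjusted p under 0.05) and limma 7 in place of 1. With 1 library of each group per number, the block cannot change the differences in empty windows (-1) and mean fuzziness (0.15 bp). Limma called 0 with an unweighted mean, with the window of 2000 bp upstream to 1000 bp downstream and with at least 10 reads, and 0 to 4 when 1 library was left out (4 without control replicate 2). The difference in mean fuzziness ran from -0.79 bp without control replicate 1 to 1.09 bp without control replicate 2, and was -0.21 bp without MYCN knockdown replicate 2. Of single genes, the fuzziness difference reversed at MXD1 (3.36 bp) and MXD4 (0.42 bp) with at least 10 reads, and at MNT (-0.61 bp) and MGA (0.34 bp) in the window of 2000 bp upstream to 1000 bp downstream. With 1 library left out, it ran from -1.72 to 3.21 bp at MYC, -3.27 to 0.38 bp at MXD1, -1.18 to 2.83 bp at MXD3, -3.14 to 0.32 bp at MXI1, -2.71 to 2.72 bp at MNT, -0.65 to 0.39 bp at MLX and -1.50 to 0.46 bp at MGA, so its sign at these 7 genes depends on the library. The difference in the number of empty windows was -2 with 50% of a nucleosome inside and with the dyad inside, 0 with at least 10 reads in the replicate 2 libraries and -1.5 to -0.5 when 1 library was left out. The unpaired share was 21.4% with a limit of 74 bp, against 13.9%. The mean number of E-boxes under a nucleosome was 5 within 50 bp of a dyad and 5.25 with at least 10 reads, against 7.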
